A study of Mus musculus with 15 samples.

Results

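Ribosome biogenesis and nucleolar genes were followed in 2 mouse tumour cell lines in which the level of Ssbp4 had been changed. The group holds 46 genes, picked by name from the 53088 gene symbols present in the tables of both lines: 3 subunits of RNA polymerase I, 14 components of the small subunit processome, 7 core proteins of the snoRNPs, 6 factors of late 40S maturation, 12 factors of large subunit assembly and 4 abundant nucleolar proteins. The list was chosen with earlier results of these data known, so it is not independent of them. MC38, a colon adenocarcinoma line, was compared as 4 wild-type (WT) libraries and 3 libraries of cells that overexpress murine Ssbp4 (OE) from the retroviral vector pMSCV-IRES-EGFP. The labels name no vector-only group for MC38, so transduction and Ssbp4 cannot be told apart there. B16-F10, a melanoma line, was compared as 4 WT libraries, from cells given Cas9 and a control guide against an intergenic region, and 4 knockout (KO) libraries, from cells given Cas9 and a mixture of guides against Ssbp4. The labels describe no selection of single clones, so the KO libraries are taken here as pools of edited cells. Polyadenylated RNA was sequenced and each gene's level is given in FPKM, that is fragments per kilobase of a gene relative to all mapped fragments, so levels of different genes within a line can be set side by side. Whether the libraries of a group were grown as separate cultures is not stated in the labels. The p-values therefore reflect only how far these libraries scatter, which may be technical scatter.

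Ribosomes are built in the nucleolus. RNA polymerase I transcribes one long precursor of the 18S, 5.8S and 28S rRNAs, and the small subunit processome assembles on the nascent transcript, beginning with the t-UTP (or UTP-A) complex and the U3 snoRNP, to fold and cleave the 18S part. Box C/D and box H/ACA snoRNPs guide methylation and pseudouridylation of the rRNA, and separate sets of factors then mature the pre-40S and pre-60S particles and hand them to the cytoplasm. Many of these genes are known targets of the transcription factor Myc, and proliferating tumour cells depend on their output.

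Levels of Ssbp4 followed the labels. In MC38 it was at 13.2, 17.3, 17.0 and 17.6 FPKM in the WT libraries and at 581, 559 and 462 FPKM in the OE libraries. In B16-F10 it was at 32.7, 37.4, 32.4 and 35.4 FPKM in the WT libraries and at 23.1, 22.0, 24.3 and 19.0 FPKM in the KO libraries, which kept 64.1% of the WT mean. Depth was estimated at 32.6 to 38.5 M fragments in MC38 and 32.6 to 48.8 M fragments in B16-F10. All 7 melanocyte markers examined were present in B16-F10. In MC38, where the label of the tissue reads melanoma, 0 of 7 reached a mean of 1 FPKM over WT and OE libraries together. Mitf came nearest, with means of 1.08 FPKM in WT and 0.752 FPKM in OE libraries. Of 8 epithelial markers only Krt8 and Krt18 reached a mean of 1 FPKM over all MC38 libraries, and Cdx2 was at 0. The WT libraries of B16-F10 formed 2 pairs over all genes: the median absolute log2 difference was 0.0597 to 0.0666 within the pairs (1 and 2, 3 and 4) and 0.152 to 0.164 between them. Members that differed between the pairs included Ncl, at 323 and 323 FPKM against 465 and 431 FPKM, and Bop1 at 118 and 127 FPKM against 79.5 and 82.2 FPKM.

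Most of the 46 genes were lower in Ssbp4-overexpressing MC38 cells. All 46 had a mean of at least 1 FPKM and entered the test, limma on log2(FPKM + 1) with Benjamini-Hochberg adjustment over all tested genes. With a threshold of 0.05 on the adjusted p, 39 fell, 0 rose and 7 did not pass. Among all 10748 genes tested in MC38, 23.6% fell and 23.9% rose. The 39 genes kept between 69.3 and 90.3% of their WT level, with log2 fold changes of -0.52 to -0.15 and adjusted p-values of 4.93e-07 to 0.0143. Each decrease was therefore moderate, but the libraries of a group lay close together: the median coefficient of variation of the members over the WT libraries was 3.57%, against 5.83% over all genes tested. The members were also more abundant, with a median WT level of 57.5 FPKM beside 12.9 FPKM over all genes tested. The shares over all genes given here are not matched for level. The OE libraries lay wholly below the WT libraries for 42 of the 46, against 25.1% of all genes tested. The median log2 fold change of the members was -0.27, beside -0.01 over all genes tested. Of the 39 decreases 38 passed with any 1 library left out, and Utp15 missed the threshold without OE library 1 (adjusted p = 0.0589 in limma).

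In B16-F10 the same genes lay mostly lower in KO libraries as well, by smaller amounts. With limma and the same threshold 8 of the 46 fell, 0 rose and 38 did not pass, in a comparison in which 0.899% of all 10902 genes tested fell and 1.33% rose. The 8 were Polr1b, Utp4, Wdr43, Nop58, Nop16, Rrp1b, Noc2l and Ddx21, at 73.9 to 84.7% of the WT level, with log2 fold changes of -0.41 to -0.24 and adjusted p-values of 0.00453 to 0.0498. At an unadjusted p under 0.05 there were 29 lower and 0 higher members, beside 8.03% lower and 13.3% higher among all genes tested. The KO libraries lay wholly below the WT libraries for 25 members, against 5.32% of all genes tested. The median log2 fold change was -0.15 for the members and 0.02 for all genes tested, and 43 of the 46 estimates were below 0.

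The number of called members in B16-F10 moved with single libraries and with the scaling, and so did the number over all genes. It was 4 without WT library 1, 4 without WT library 2, 2 without WT library 3 and 2 without WT library 4. It was 3 without KO library 1, 2 without KO library 2, 2 without KO library 3 and 7 without KO library 4. Over all genes tested 98 fell with every library kept. This became 45, 53, 27 and 22 with WT libraries 1, 2, 3 and 4 left out in turn. With KO libraries 1, 2, 3 and 4 left out in turn it became 16, 15, 15 and 147. Utp4 and Rrp1b passed with any of the 8 libraries left out, whereas Polr1b passed in 3 of the 8 fits, Nop16 and Noc2l in 2 each, Ddx21 in 1, and Wdr43 and Nop58 in 0. Over all genes tested 145 rose and 98 fell, which became 80 and 121 with median-of-ratios scaling, 226 and 83 with a common total, and 44 and 90 with centring per chromosome. The members called lower numbered 13, 6 and 10 under these scalings, and 0 were called higher. With no filter on low genes 3 members were called lower. With WT libraries 1 and 2 left out, a choice made after seeing the data, 25 members fell, and with WT libraries 3 and 4 left out 13 did, with 0 higher in both fits and all 8 genes among them. Leaving out a pair also narrows the WT spread by construction, and 1107 of 10888 and 565 of 10918 genes then fell.

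The mean over the members was stable from library to library. Relative to the WT mean on the log2(FPKM + 1) scale, the 46 members averaged -0.280, -0.297 and -0.278 in the OE libraries of MC38, where all genes tested averaged 0.027, 0.027 and 0.020. In B16-F10 they averaged -0.162, -0.162, -0.149 and -0.156 in the KO libraries, and WT libraries 1 to 4 lay at -0.028, -0.031, 0.031 and 0.028. Modified and WT libraries did not overlap in this mean in either line. Nor did they overlap in the mean over all genes tested, where the modified libraries lay slightly above WT. In B16-F10 that mean was 0.020, 0.033, 0.031 and 0.014 in KO libraries and -0.008 to 0.004 in WT libraries. In MC38 it was -0.007 to 0.01 in WT libraries. Absence of overlap in a mean over many genes is therefore not particular to the members, which differ in the direction and size of the shift.

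**Figure D1:**
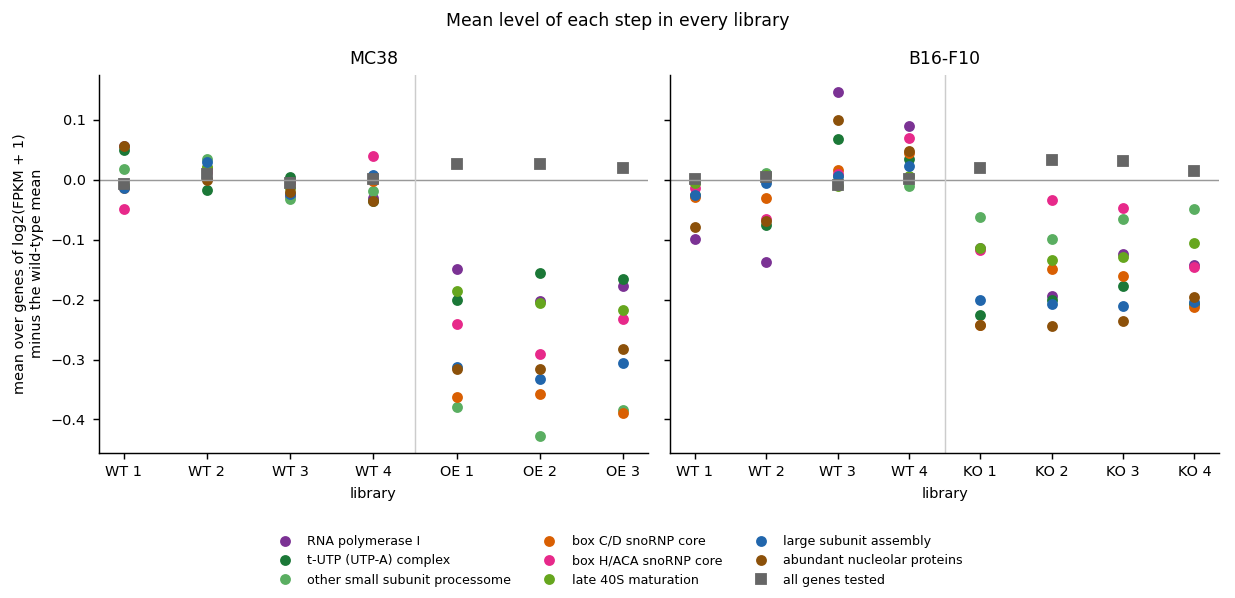
Mean log2(FPKM + 1) of the members of each step in every library, relative to the mean of the WT libraries of the same line, with 1 point per library. The OE libraries lie below the WT libraries in all 8 steps of MC38, and in B16-F10 the KO libraries overlap the WT libraries in the RNA polymerase I and box H/ACA steps.

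RNA polymerase I itself was measured through 3 subunits, and 1 of the 3, Polr1b, fell in both lines. Polr1b encodes the second-largest subunit, which forms the catalytic centre together with the largest. In MC38 it was at 30.2, 28.7, 28.8 and 28.4 FPKM in WT and 20.5, 21.5 and 19.9 FPKM in OE libraries, a log2 fold change of -0.47 (SE 0.04, limma adjusted p = 9.48e-06). In B16-F10 it was at 22.6, 22.4, 23.0 and 22.4 FPKM in WT and 19.7, 17.9, 18.2 and 18 FPKM in KO libraries (-0.28, SE 0.05, limma adjusted p = 0.0254). The groups did not overlap in either line. The other subunits behaved differently. Polr1a, which encodes the largest subunit, was at 94.4% of WT in MC38, and in B16-F10 it was at 24.1, 26.1, 36.5 and 34.4 FPKM in WT and 28.8, 25.6, 27.9 and 31.9 FPKM in KO libraries, with overlapping groups in both lines. Polr1e, a subunit that takes part in initiation and elongation, was at 17.5, 17.6, 18.8 and 18.3 FPKM in WT and 19.5, 16.8 and 18.8 FPKM in OE libraries of MC38, again overlapping. Neither passed in either line.

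The t-UTP complex, which joins transcription of the precursor to its first processing, showed modest decreases in MC38 and nearly the same median in B16-F10. Of its 6 members Heatr1, Utp4, Utp15 and Wdr43 fell in MC38 and Utp4 and Wdr43 fell in B16-F10, and the median log2 fold changes were -0.16 and -0.18. Wdr43 was at 91.5, 86.3, 94.9 and 89.6 FPKM in WT and 74.3, 75.6 and 73.8 FPKM in OE libraries (-0.28, SE 0.04, limma adjusted p = 0.000186), the lowest fold change of the step in MC38. Wdr75 had the highest, at 46.2, 44.9, 44.0 and 42.8 FPKM in WT and 41.2, 42.0 and 42.2 FPKM in OE libraries. The Wdr75 groups did not overlap, but the gene missed the threshold (-0.09, limma adjusted p = 0.0695), as did Nol11 (-0.10, limma adjusted p = 0.0526).

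Utp4 had the lowest fold change of the step in B16-F10. It was at 37.4, 35.1, 39.1 and 37.7 FPKM in WT and 28.6, 28.9, 28.6 and 29.2 FPKM in KO libraries, or 77.2% of WT (-0.36, SE 0.04, limma adjusted p = 0.00869). The KO libraries lay close to each other and below every WT library. Wdr43 came next, at 83.9% of WT (-0.25, limma adjusted p = 0.0498). Wdr75, the most abundant member of the step in this line, was at 45.2, 45.6, 48.5 and 47.4 FPKM in WT and 39.3, 41.1, 41.2 and 41.7 FPKM in KO libraries, without overlap but above the threshold (-0.19, limma adjusted p = 0.0563). Heatr1, a large scaffold protein of the complex, was at 14.9, 14.5, 14.7 and 15 FPKM in WT and 13.2, 13.7, 13.0 and 14.6 FPKM in KO libraries, and KO library 4 reached into the WT range.

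The rest of the small subunit processome fell in MC38 as a whole step and was only slightly below WT in B16-F10. All 8 members (Utp20, Nol6, Nol10, Nop14, Rrp9, Imp3, Imp4 and Noc4l) fell in MC38, with a median log2 fold change of -0.43, the lowest median of the 8 steps in this line. None of the 8 passed in B16-F10, where the median was -0.06 and the range -0.17 to 0.01. Relative to the WT mean, the step still averaged -0.062, -0.098, -0.065 and -0.049 in the KO libraries, below the WT libraries at -0.011 to 0.012. Nop14 was the 1 member of the step without overlap in B16-F10 (-0.14, limma adjusted p = 0.167). Noc4l and Nop14 act as partners in 18S rRNA processing. Noc4l was at 34.9, 38.5, 37.2 and 37.5 FPKM in WT and 26.8, 24.0 and 26.3 FPKM in OE libraries of MC38 (-0.51, SE 0.05, limma adjusted p = 1.76e-05). Nop14 was at 72.2, 67.1, 72.2 and 68.8 FPKM in WT and 50.2, 50.7 and 48.7 FPKM in OE libraries (-0.48, SE 0.04, limma adjusted p = 4.24e-06). For both, every OE library was far below the lowest WT library.

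Nol6, another processome protein, had the smallest change of these 8 in MC38, at 31.3, 33.8, 30.1 and 30.8 FPKM in WT and 28.2, 25.8 and 26.2 FPKM in OE libraries (-0.23, SE 0.05, limma adjusted p = 0.0038). Rrp9, a protein of the U3 snoRNP, fell to 71.1% of WT in MC38 and was level with WT in B16-F10 (0.01, limma adjusted p = 0.955). In B16-F10 Noc4l was at 17.2, 18.3, 19.8 and 18.8 FPKM in WT and 19.8, 17.6, 19.1 and 17.9 FPKM in KO libraries, with fully intermixed groups (0.01, limma adjusted p = 0.959). Imp4, which joins the U3 snoRNA to the precursor with Imp3 and Mphosph10, was the lowest of the step there, at 57.0, 62.0, 52.1 and 54.8 FPKM in WT and 48.8, 49.1, 52.4 and 49.5 FPKM in KO libraries. KO library 3 of Imp4 lay just above WT library 3, and the gene did not pass (-0.17, limma adjusted p = 0.135).

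Core proteins of the box C/D snoRNPs fell in MC38 in all 3 cases, and Nop58 fell in B16-F10. Fbl encodes fibrillarin, the methyltransferase of these particles, and Nop56 and Nop58 are related scaffold proteins that hold the guide RNA. Nop56 was at 250, 252, 244 and 243 FPKM in WT and 174, 175 and 173 FPKM in OE libraries of MC38, or 70.4% of WT (-0.50, SE 0.03, limma adjusted p = 4.93e-07). This was the lowest adjusted p among the 46 genes. Fbl was at 227, 257, 237 and 243 FPKM in WT and 212, 198 and 198 FPKM in OE libraries (-0.25, SE 0.05, limma adjusted p = 0.00144). In B16-F10 Nop58 was at 209, 205, 230 and 228 FPKM in WT and 167, 185, 184 and 184 FPKM in KO libraries (-0.27, SE 0.06, limma adjusted p = 0.0472). Fbl was at 141, 141, 134 and 133 FPKM in WT and 131, 131, 128 and 125 FPKM in KO libraries, below WT without overlap but still at 94.0% of the WT mean, and it did not pass (-0.09, limma adjusted p = 0.257).

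Among the box H/ACA proteins, Dkc1 (dyskerin, the pseudouridine synthase), Gar1 and Nhp2 fell in MC38 and Nop10 did not pass, whereas 0 of the 4 passed in B16-F10. Gar1 was at 71.8, 81.6, 78.1 and 87.0 FPKM in WT and 62.7, 60 and 59.4 FPKM in OE libraries (-0.38, SE 0.06, limma adjusted p = 0.000382). Nhp2 was at 178, 195, 184 and 201 FPKM in WT and 149, 140 and 146 FPKM in OE libraries (-0.38, SE 0.04, limma adjusted p = 7.16e-05). Nop10, the smallest protein of the particle, was at 68.3, 69.5, 69.3 and 71.3 FPKM in WT and 65.5, 63.3 and 74.2 FPKM in OE libraries. Of these genes only Nop10 had overlapping groups, because OE library 3 was the highest of the 7. In B16-F10 Nop10 was at 37.2, 33.9, 34.3 and 36.5 FPKM in WT and 35.5, 37.6, 36.1 and 35.0 FPKM in KO libraries, likewise overlapping. Nhp2 was at 123, 125, 121 and 134 FPKM in WT and 107, 110, 107 and 111 FPKM in KO libraries. These groups did not overlap, and Nhp2 lay just above the threshold (-0.21, limma adjusted p = 0.0504).

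Late 40S maturation factors fell in MC38 with the exception of Pno1, and 0 of the 6 passed in B16-F10. Rrp12 takes part in export of pre-ribosomal particles, Ltv1 and Tsr1 are pre-40S factors that are released in the cytoplasm, Bysl acts in the nucleus, and Nob1 is the endonuclease that makes the 3′ end of 18S rRNA with Pno1 as its partner. Ltv1 was at 59.2, 56.5, 58.8 and 58.4 FPKM in WT and 41.9, 43.5 and 43.6 FPKM in OE libraries of MC38 (-0.43, SE 0.03, limma adjusted p = 4.61e-06). Pno1 was at 86.4, 88.6, 94.3 and 99.8 FPKM in WT and 103, 103 and 88.3 FPKM in OE libraries, with overlapping groups (0.09, limma adjusted p = 0.303). Pno1 thus had the highest estimate of the 46 genes in MC38, while its partner Nob1 fell to 85.6% of WT (-0.22, limma adjusted p = 0.00127). In B16-F10 Pno1 was at 38.7, 34.9, 35.3 and 37.5 FPKM in WT and 35.8, 37.2, 35.8 and 37.4 FPKM in KO libraries, or 99.9% of WT. Rrp12 was at 10.7, 11.3, 11 and 11 FPKM in WT and 9.72, 8.52, 8.31 and 10.3 FPKM in KO libraries. Its KO libraries lay below all WT libraries but were spread, and it did not pass (-0.24, SE 0.07, limma adjusted p = 0.093).

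Large subunit assembly was the largest step, with 12 genes, of which 11 fell in MC38 and 3 (Nop16, Rrp1b and Noc2l) fell in B16-F10. Its median log2 fold changes were -0.32 and -0.21. Wdr74, a factor of early pre-60S particles, had the lowest fold change of all 46 genes in MC38, at 103, 109, 105 and 110 FPKM in WT and 76.2, 70.1 and 75.4 FPKM in OE libraries (-0.52, SE 0.04, limma adjusted p = 4.03e-06). Gnl3 (nucleostemin, a nucleolar GTPase) had the highest of the step, at 113, 106, 110 and 108 FPKM in WT and 96.3, 102 and 98.8 FPKM in OE libraries (-0.15, SE 0.03, limma adjusted p = 0.00603). OE libraries lay below WT libraries for both. Grwd1, a chaperone of ribosomal protein Rpl3, was the 1 gene of the step that did not pass in MC38, although its groups did not overlap (-0.16, limma adjusted p = 0.0853). The subunits Bop1, Pes1 and Wdr12, which form the PeBoW complex, fell to 84.0, 84.1 and 78.5% of WT in MC38.

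Rrp1b, a nucleolar protein of the 60S pathway, had the lowest fold change and the lowest adjusted p of the 46 genes in B16-F10. It was at 16.3, 16.8, 17.1 and 16.9 FPKM in WT and 12.3, 12.0, 13.0 and 12.2 FPKM in KO libraries, or 73.9% of WT (-0.41, SE 0.05, limma adjusted p = 0.00453). In MC38 it fell to 71.3% of WT (-0.46, limma adjusted p = 9.45e-06), so its decreases were of similar size in both lines. Wdr74, by contrast, was at 30.3, 28.0, 31.0 and 33.6 FPKM in WT and 30.6, 29.6, 28.5 and 28.9 FPKM in KO libraries of B16-F10, with overlapping groups. Bop1, the most abundant gene of the step there, was at 118, 127, 79.5 and 82.2 FPKM in WT and 87.1, 79.3, 76.2 and 101 FPKM in KO libraries. Its WT libraries were split into a high and a low pair, the KO range overlapped the low pair, and it did not pass (-0.22, SE 0.16, limma adjusted p = 0.468).

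Abundant nucleolar proteins fell in MC38 in all 4 cases. Npm1 (nucleophosmin, a histone and pre-60S chaperone) was at 2962, 2774, 2961 and 2794 FPKM in WT and 2496, 2503 and 2491 FPKM in OE libraries (-0.20, SE 0.04, limma adjusted p = 0.0026). Ddx21, an RNA helicase that works in both RNA polymerase I and polymerase II transcription, was at 168, 160, 155 and 154 FPKM in WT and 120, 122 and 124 FPKM in OE libraries (-0.38, SE 0.04, limma adjusted p = 2.06e-05). Their groups were far apart relative to the spread within each group. Mybbp1a, a nucleolar protein that binds Myb, fell to 81.0% of WT (-0.30, limma adjusted p = 0.000589). In B16-F10 only Ddx21 passed, at 84.7% of WT (-0.24, limma adjusted p = 0.0427). Npm1 was at 1169, 1178, 1215 and 1185 FPKM in WT and 969, 1069, 1080 and 1079 FPKM in KO libraries, without overlap (-0.18, limma adjusted p = 0.11). Ncl (nucleolin, which binds rRNA precursors) was at 323, 323, 465 and 431 FPKM in WT and 315, 309, 310 and 301 FPKM in KO libraries. The KO libraries of Ncl were tight and lay just below WT libraries 1 and 2 but far below WT libraries 3 and 4, and the gene did not pass (-0.30, SE 0.12, limma adjusted p = 0.182).

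**Figure D2:**
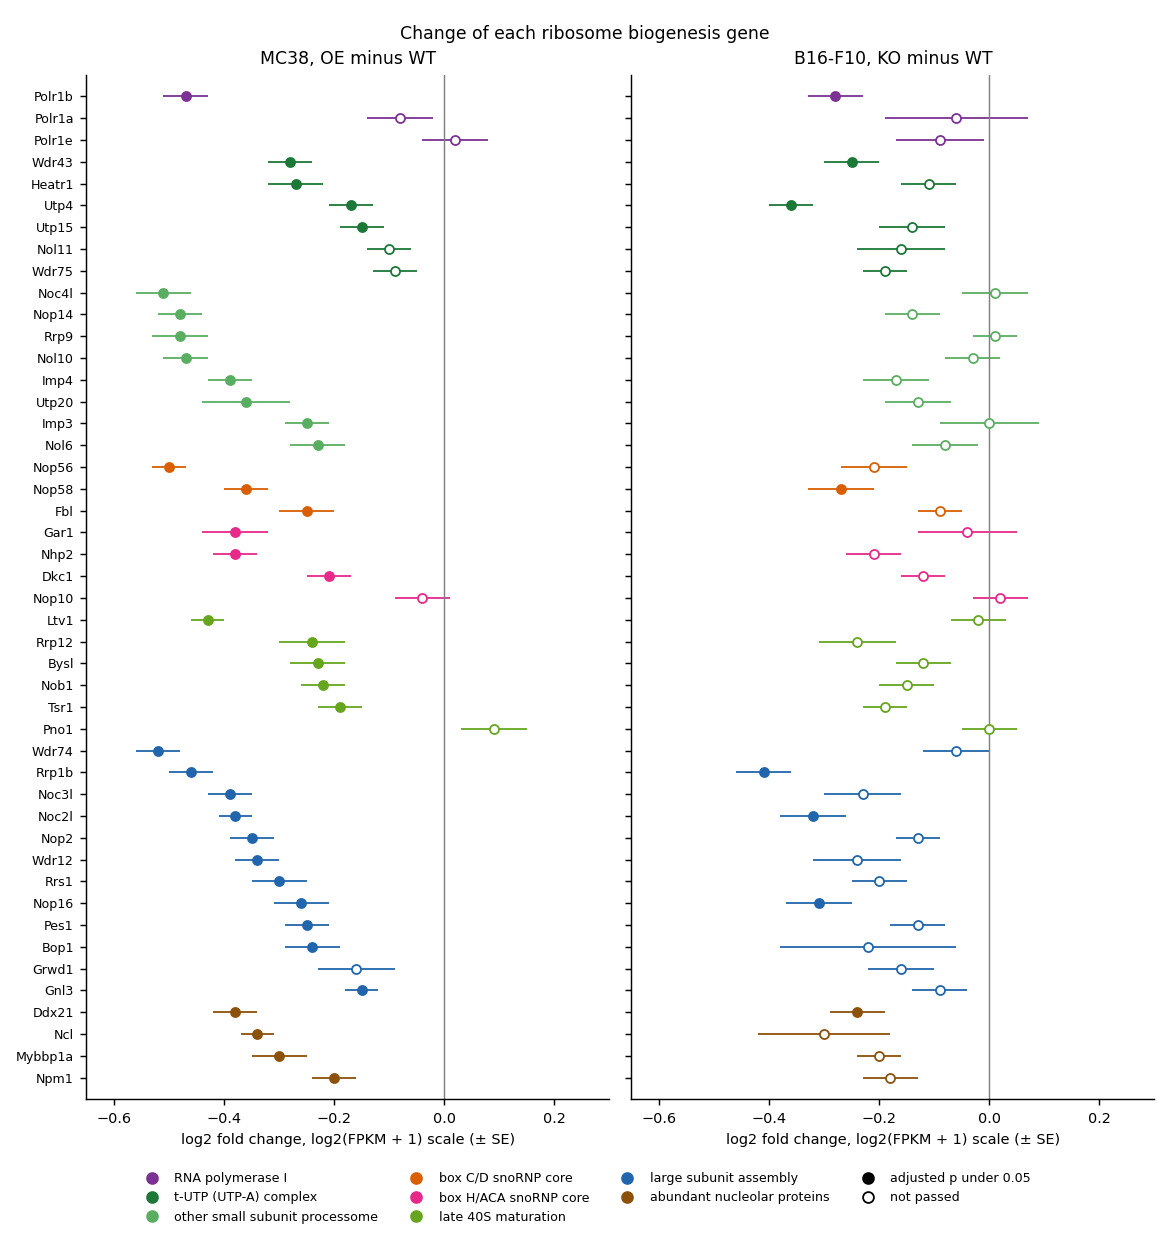
Log2 fold change on the log2(FPKM + 1) scale, modified minus WT libraries, of each of the 46 genes by step, with bars of 1 SE from limma and filled points for genes with an adjusted p under 0.05. In MC38 39 points are filled and lie between -0.52 and -0.15, and in B16-F10 8 are filled and lie between -0.41 and -0.24.

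All 8 genes that fell in B16-F10 also fell in MC38. As 39 of the 46 fell in MC38, most of any 8 members would be among them. The overlap of the lines over all genes tested was not counted. Another 31 members passed in MC38 without passing in B16-F10, and the 7 that passed in neither line were Polr1a, Polr1e, Nol11, Wdr75, Nop10, Pno1 and Grwd1. Ssbp4 itself was raised in MC38 and lowered in B16-F10, whereas 8 members fell in both. To see where the lines differed, the difference between the OE and KO effects was itself tested in 1 limma fit over all 15 libraries. The effect was more negative in MC38 for 11 members and less negative for 1, in a comparison in which 14.4% of the 9739 genes tested in both lines were more negative in MC38 and 11.4% were less negative. The 5 most negative differences were those of Noc4l (-0.52, limma adjusted p = 0.000214), Rrp9 (-0.49, limma adjusted p = 8.72e-05), Wdr74 (-0.46, limma adjusted p = 0.000322), Nol10 (-0.44, limma adjusted p = 0.000112) and Ltv1 (-0.40, limma adjusted p = 0.000146). Gar1 (-0.35), Nop14 (-0.34), Nop56 (-0.29), Nop2 (-0.22), Imp4 (-0.22) and Polr1b (-0.19) were the other 6, with limma adjusted p-values of 0.00166 to 0.0436. By step, 5 of the 8 members of the processome outside the t-UTP complex were among the 11. Utp4 of the t-UTP complex was the 1 gene with the opposite difference (0.20, limma adjusted p = 0.0208), having fallen further in B16-F10. Of the 12, Polr1b, Imp4, Gar1 and Utp4 lost their call with a library left out, Utp4 only without OE library 3. The tables of the lines were normalised separately, so only effects within a line entered this comparison.

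**Figure D3:**
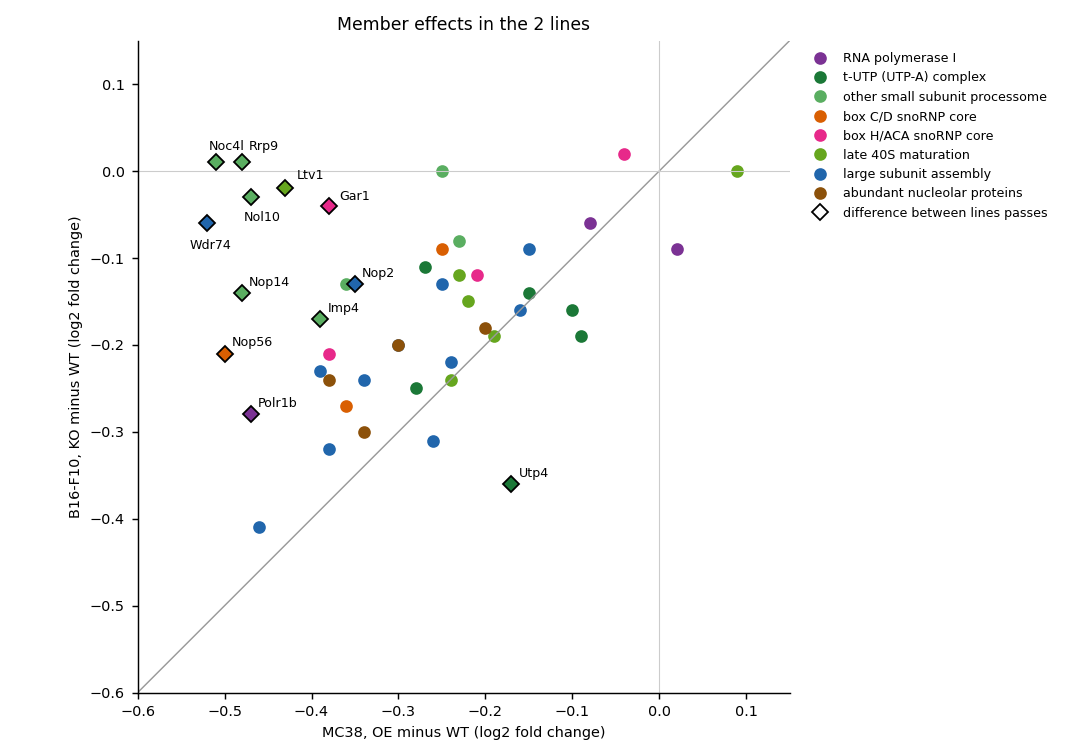
Log2 fold change of each of the 46 genes in MC38 (OE minus WT, x axis) against B16-F10 (KO minus WT, y axis), coloured by step, with the line of equal effects. Diamonds mark the 12 genes whose effects differed between the lines, of which 11 lie above the line of equal effects and Utp4 lies below it.

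Levels of the members in WT cells were high and differed in order between the lines. The median WT level of the members was 57.5 FPKM in MC38 and 35.6 FPKM in B16-F10, where the medians of all genes tested were 12.9 and 13.5 FPKM. Npm1 was the most abundant in both, at 2873 ± 103 FPKM (SD, n = 4) in MC38 and 1187 ± 20 FPKM (SD, n = 4) in B16-F10, and Ncl came next, at 330 ± 9.61 FPKM (SD, n = 4) in MC38 and 386 ± 73.3 FPKM (SD, n = 4) in B16-F10. The box C/D proteins followed in both lines. In MC38 Nop56 (247 ± 4.15 FPKM) and Fbl (241 ± 12.5 FPKM) differed by less than the SD of Fbl and lay above Nop58 (202 ± 5.55 FPKM; SD, n = 4 for each). In B16-F10 Nop58 (218 ± 12.8 FPKM) lay above Nop56 (180 ± 10.1 FPKM) and Nop56 above Fbl (137 ± 4.11 FPKM; SD, n = 4 for each). The least abundant members were Rrp12 in MC38, at 12.9 ± 1.03 FPKM (SD, n = 4), and Utp20 in B16-F10, at 9.92 ± 0.651 FPKM (SD, n = 4).

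**Figure D4:**
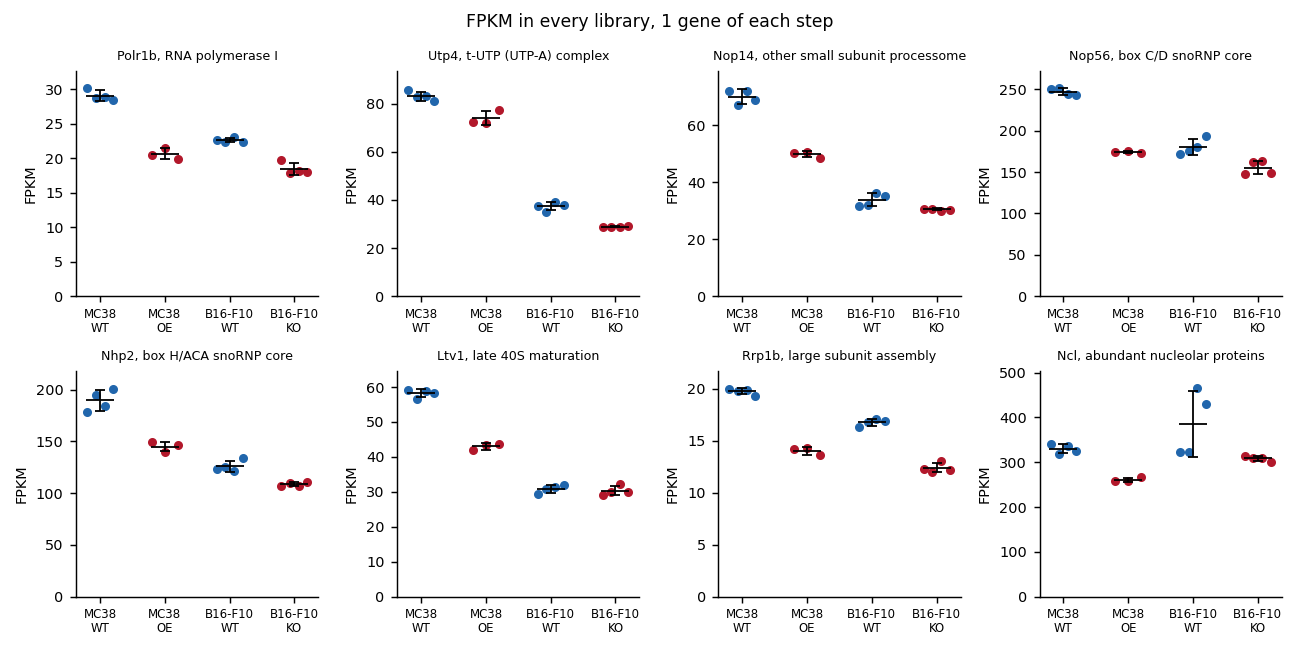
FPKM in every library for 1 gene of each step, on axes from 0, with 1 point per library (WT blue, modified red) and the mean and SD of each group in black. The OE points lie below the WT points of MC38 for all 8 genes, the KO points lie below the WT points of B16-F10 for all but Ltv1, and the WT points of Ncl in B16-F10 form a high and a low pair. The genes shown are not typical of B16-F10, where 25 of the 46 members lay wholly below WT. In that line this held for 1 of the 3 RNA polymerase I subunits, Polr1b, and for 1 of the 8 members of the step of Nop14.

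Other genes of the pathway moved the same way in MC38, where 23.6% of all genes tested fell and 23.9% rose. Their list, too, was chosen with earlier results of these data known. Of 116 further genes of ribosome biogenesis, 115 entered the test, and 80 fell, 5 rose and 30 did not pass, with a median log2 fold change of -0.23. The number that fell was 9 of 13 for RNA polymerase I and its factors, 23 of 36 for the processome and 40S maturation, 38 of 49 for 60S maturation and 10 of 17 for snoRNP assembly and RNA processing. The lowest fold changes were those of Exosc5 (-0.66), a core subunit of the RNA exosome, Krr1 (-0.57), a processome protein, and Ddx27 (-0.54), a helicase of 60S assembly. Shq1, the assembly chaperone of dyskerin, had the highest, at 7.70, 8.72, 7.95 and 8.24 FPKM in WT and 11.5, 10.6 and 11.2 FPKM in OE libraries (0.41, SE 0.06, limma adjusted p = 0.000197). Every OE library of Shq1 lay above every WT library, whereas its client Dkc1 fell to 86.3% of WT. Utp23 (0.26) and Ddx47 (0.19), both of 18S processing, were the next highest. The 5 that rose became 3 without OE library 1 and 3 without OE library 2. In B16-F10, where 0.899% of all genes tested fell and 1.33% rose, 2 of the 115 fell and 0 rose, with a median of -0.08. These were Nolc1 (-0.34, limma adjusted p = 0.0426), a chaperone of snoRNPs that also binds RNA polymerase I, and Nmd3 (-0.24, limma adjusted p = 0.0396), the export adaptor of the 60S subunit. This count was 0 without KO library 1, 2 or 3 or WT library 3 or 4, 1 without WT library 1 or 2, and 4 without KO library 4.

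Some other values moved with the decrease in MC38. Myc, a gene outside the list, was at 163, 190, 186 and 191 FPKM in WT and 95.1, 96.6 and 91.2 FPKM in OE libraries (-0.94, SE 0.05, limma adjusted p = 5.07e-07). In B16-F10 it was at 33.2, 33.2, 24.3 and 25.8 FPKM in WT and 30.5, 28.5, 31.4 and 27.6 FPKM in KO libraries, with overlapping groups (0.03, limma adjusted p = 0.909). The summed level of 5 fibroblast markers was 82.0 to 87.4 FPKM in WT and 384 to 392 FPKM in OE libraries of MC38, mostly from Dcn (mean 65.6 against 320 FPKM) and Pdgfra (17.6 against 66.1 FPKM), while Col1a1 and Col1a2 stayed under 1 FPKM in both groups. In B16-F10 the same sum was 3.11 to 4.77 FPKM in WT and 3.61 to 6.03 FPKM in KO libraries. Epithelial markers moved in MC38 in both directions. Krt18 was at 2.64, 3.32, 3.43 and 3.54 FPKM in WT and at most 0.162 FPKM in OE libraries (-1.99, limma adjusted p = 1.55e-07), and Epcam was at a mean of 0.846 FPKM in WT and listed at 0 in the OE libraries. Krt8 rose from a mean of 3.22 to 9.45 FPKM (1.31, limma adjusted p = 2.6e-06). The part of Myc or of these marker genes in the decrease was not tested. In bulk RNA, fewer cells with high expression and less RNA per cell cannot be told apart.

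Promoter sequences were examined for what the members share apart from their levels. RefSeq promoters of the GRCm38.p6 build were matched for 40 of the 46 genes, and Npm1, Fbl, Nol6, Rrp12, Rrs1 and Bop1 had no match. In the 250 bases before the start, on both strands, the E-box CACGTG, which is bound by Myc and related factors, was found in 3 of the 40 (7.5%) and in 6.0% of 27025 promoters. The ETS core CCGGAAG was found in 9 (22.5%, against 7.1% of all promoters) and the GC box GGGCGG in 25 (62.5%, against 32.9%). Among other motifs CCAAT occurred in 12 (30.0%, against 34.5%), TATAAA in 3 (7.5%, against 13.0%), TGACGTCA in 1 (2.5%, against 1.6%) and GCGCATGC in 1 (2.5%, against 2.3%). The members' promoters had a median GC content of 57.0% and a median of 15 CpG dinucleotides, against 52.0% and 6 over all promoters, which also include genes that are not expressed here. A match describes letters in this window only.

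The 3 promoters with the E-box are shown because they belong to members of 3 different steps. Each stretch is 130 bases, written 5′ to 3′ on the strand of the gene, with CACGTG in capitals. Imp4 lies at chr1:34439646-34439775 on the plus strand, Nop2 at chr6:125131753-125131882 on the plus strand and Nol11 at chr11:107189382-107189511 on the minus strand, all in GRCm38.p6, upstream of the transcription start. The E-box begins 121, 60 and 43 bases before the start.
Imp4: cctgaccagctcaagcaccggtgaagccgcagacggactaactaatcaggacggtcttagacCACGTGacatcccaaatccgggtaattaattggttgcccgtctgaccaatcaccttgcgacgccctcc
Nop2: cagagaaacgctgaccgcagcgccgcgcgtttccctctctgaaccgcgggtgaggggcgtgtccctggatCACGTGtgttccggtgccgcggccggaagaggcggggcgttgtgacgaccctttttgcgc
Nol11: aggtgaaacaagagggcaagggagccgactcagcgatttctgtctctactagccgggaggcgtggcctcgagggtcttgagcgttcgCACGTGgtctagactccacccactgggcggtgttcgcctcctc
In MC38 Imp4 (-0.39) and Nop2 (-0.35), the methyltransferase of 28S rRNA, fell, and Nol11 (-0.10) did not pass. The median log2 fold change in MC38 was -0.35 over these 3 genes and -0.30 over the 37 members without the motif, whose range of -0.52 to 0.09 encloses all 3.

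Some values of the members could include reads of neighbouring genes. In the GENCODE M21 annotation 21 members share exonic bases with a gene on the opposite strand, 5 of them over 200 bases: Tsr1 with Srr (1240 bases), Noc2l with Samd11 (598), Nol11 with Gm11715 (437), Bysl with Ccnd3 (361) and Imp4 with Gm28306 (209). The kit marks strand, but whether the counting used it is not given in the sources used here. Nop56, Nop58, Gnl3 and Ncl share exonic bases with small RNA genes on their own strand, and reads of Fbl and Gnl3 may be shared with their paralogs Fbll1 and Gnl3l. These values are uncertain to that extent.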

How the data were processed

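Polyadenylated RNA of 15 libraries was sequenced after stranded library preparation, per the labels. The authors deposited FPKM values by gene symbol, in separate tables for the lines, and the submitters' processing notes name GRCm39 and DESeq2. Aligner, counting tool and annotation: not given in the sources used here. Columns were matched to samples by their labels, with 0 left unmatched. FPKM columns summed to between 482580 and 511160. The spacing of low FPKM values, with gene lengths of GENCODE M21, gave an estimate of depth. Between 82.8 and 86.9% of low values came within 0.1 of a whole fragment. This share was too low to recover read numbers, and no count model was used. Sequencing depth of each library limits the precision of low genes.

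The tests used limma 3.58.1 (R 4.3.3) with a trended prior on log2(FPKM + 1), a scale that makes changes of weakly expressed genes look smaller than they are. Genes needed a mean of at least 1 FPKM in the line, each line was fitted alone, and two-sided p-values were adjusted by Benjamini-Hochberg over all tested genes. The effects of the lines were compared as a contrast in 1 fit. The procedure was tested on simulated data, with planted changes larger than those of the members and with noise independent between libraries. That test therefore does not cover changes as small as those of the members, or libraries that form pairs. The members and lists were chosen with earlier results of these data known. All 46 members are accounted for, and values by library are given for the members with the highest and lowest fold change and the highest WT level of each step and line, for Ssbp4 and for Myc. Of the other pathway genes, 1 was matched by an older symbol, and those named are up to 3 highest and 3 lowest called genes per line with a mean of at least 5 FPKM in the higher group. Promoters are of RefSeq on GRCm38.p6, an earlier build than that of the authors.

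As alternatives, a pseudocount of 0.1, no filter or one at 5 FPKM, other scalings, a robust variance model, a replicate block and the omission of each library were run. Plots were made in Python 3.11.15 with matplotlib 3.10.9.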

Additional observations from a re-analysis of the deposited data

Results flagged for a closer look

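Within groups of 4 libraries, 6 of 138 sets of member values had 1 library apart from the other 3 by Dixon's test at the 95% level, which chance gives in about 1 of 20. In WT MC38 they were Nol10, at 35.9 FPKM in library 1 against 35.3 in the others, and Bysl, at 16.7 FPKM in library 2 against 15.6 to 15.7. In KO libraries of B16-F10, library 1 held 3 of them: Polr1b was high, at 19.7 FPKM against 17.9 to 18.2, while Nop58 was low, at 167 FPKM against 184 to 185, and Npm1 was low, at 969 FPKM against 1069 to 1080. Ddx21 was high in KO library 4, at 68.4 FPKM against 61.6 to 62.6.

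The effect in MC38 minus that in B16-F10 passed the test of the difference for 12 members on the log2(FPKM + 1) scale. It was -0.52 for Noc4l, -0.49 for Rrp9, -0.44 for Nol10, -0.34 for Nop14 and -0.22 for Imp4 in the small subunit processome. It was -0.29 for Nop56 and -0.35 for Gar1 of the snoRNPs, -0.40 for Ltv1, -0.46 for Wdr74, -0.22 for Nop2 and -0.19 for Polr1b. Utp4 had the opposite sign, at 0.20.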

How the results depend on the processing

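In MC38 the 39 decreases among the members became 36 to 40 in the alternatives run, and 38 to 40 with 1 library left out. In B16-F10 the 8 decreases became 13 with median-of-ratios scaling, 3 with no filter, 0 with a block for the replicate number, and 2 to 7 with 1 library left out. They became 25 with WT libraries 1 and 2 left out and 13 with WT libraries 3 and 4 left out, alternatives chosen after seeing the data. The 12 differences between the lines became 7 with the block. For the other pathway genes, the 5 increases in MC38 became 2 with the block and 3 to 5 with 1 library left out, and the 2 decreases in B16-F10 became 1 with centring per chromosome, 0 with no filter, 0 with the block, 0 to 4 with 1 library left out, 33 (with 1 increase) without WT libraries 1 and 2 and 8 without WT libraries 3 and 4. The cause was not tested, except that fits with a library left out hold fewer libraries and the fit with no filter holds more genes. No value that passed in the main analysis changed sign. The difference between the lines for Ncl, which had not passed (-0.04), passed with the other sign (0.20) without WT libraries 1 and 2, and 91 of 1547 values of members that passed in neither fit changed sign. The replicate numbers did not pair the samples: deviations of same-numbered libraries correlated at -0.288 to -0.066 in MC38 and -0.298 to 0.165 in B16-F10. Estimated depth was at least 32.6 M fragments in every library.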
